A study of Mus musculus with 8 samples.

Results

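Brown adipose tissue burns fat to make heat, and a small group of genes is used to recognise it in a transcriptome. Counts for 9 such genes, of 56884 genes in the count tables, were examined in the liver of aged obese female mice with and without a docosahexaenoic acid (DHA)-rich diet. Of the 9 genes, 2 (Ucp1 and Cidea) were grouped as genes of brown fat alone, although Cidea is also known to be induced in fatty liver. The other 7 (Cox7a1, Cox8b, Cox6a2, Elovl3, Cpt1b, Dio2 and Fabp3) are high in brown fat but are also made by skeletal muscle, heart or further tissues. The genes were chosen by name, with their raw counts per library in this same diet contrast already known. Their differences between diets are therefore given as a description, and the fit over all genes is only counted for them once, with nothing read from it.

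The liver RNA libraries came from 8 female C57BL/6J mice aged 18 months, 3 in the DIO group and 5 in the DIO + DHA group, and the batch field of the sample labels is 1 for all 8. Every mouse was obese from a high fat diet (45% of energy as lipids) started at 2 months of age. After 4 months the DIO mice stayed on that diet, while in the DIO + DHA mice a fish oil concentrate rich in DHA replaced 15% by weight of the dietary lipids. No mice on standard chow and no young mice were among these libraries, and the concentrate also held other n-3 fatty acids. Total counts ranged from 1723800 (DIO replicate 1) to 5690347, so 1 count was worth between 0.177 and 0.561 CPM (counts divided by the effective library size and multiplied by 1e6). Hepatocyte genes were high in both groups: the summed level of 10 of them, albumin included, was 130426 to 139135 CPM in DIO and 135657 to 146350 CPM in DIO + DHA.

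In a brown adipocyte, UCP1 lets protons back across the inner mitochondrial membrane, so that respiration releases heat instead of driving ATP synthesis. Cytochrome c oxidase, the last complex of the respiratory chain, has nuclear-encoded subunits that exist in a common isoform, used by liver, and an isoform used by heart, skeletal muscle and brown fat. Cox6a2, Cox7a1 and Cox8b encode that second kind for subunits 6A, 7A and 8. Transcripts of these 3 genes alone thus do not separate brown fat from muscle, whereas Ucp1 is not a muscle gene.

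Promoter sequences are shown for the gene that marks brown fat (Ucp1) and for a pair of the shared oxidase isoforms (Cox7a1, Cox8b), as the 250 bases before the RefSeq gene start on GRCm38.p6, 5′ to 3′. These coordinates belong to RefSeq's build and not to the GRCm39 build of the counts. RefSeq promoters were matched by symbol for 5 of the 9 genes (also Dio2 and Fabp3); Cidea, Cox6a2, Elovl3 and Cpt1b had no entry. Capitals mark the muscle-type E-box letters CAGCTG where they occur.
Ucp1 (chr8:83290098-83290347, plus strand): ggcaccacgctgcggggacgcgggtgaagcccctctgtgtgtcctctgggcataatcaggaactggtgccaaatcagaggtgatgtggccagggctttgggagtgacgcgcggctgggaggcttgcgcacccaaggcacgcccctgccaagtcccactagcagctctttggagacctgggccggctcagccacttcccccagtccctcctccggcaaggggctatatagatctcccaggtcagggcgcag
Cox7a1 (chr7:30183921-30184170, plus strand): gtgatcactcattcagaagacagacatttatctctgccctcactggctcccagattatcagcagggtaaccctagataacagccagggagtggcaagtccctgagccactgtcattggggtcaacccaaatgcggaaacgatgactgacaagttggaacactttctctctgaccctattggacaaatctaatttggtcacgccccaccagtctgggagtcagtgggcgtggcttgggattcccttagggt
Cox8b (chr7:140900447-140900696, minus strand): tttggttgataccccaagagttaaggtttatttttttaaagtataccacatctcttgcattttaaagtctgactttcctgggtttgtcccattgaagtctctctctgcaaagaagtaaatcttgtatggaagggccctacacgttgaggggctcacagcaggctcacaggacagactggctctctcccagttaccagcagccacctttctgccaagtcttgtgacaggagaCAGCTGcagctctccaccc
Only Cox8b, of the 5 promoters matched, held CAGCTG, once, starting at base −19 from the gene start. These letters, which read the same on both strands, were found in 13.0% of 32851 promoter windows of the same length. TATAAA, on either strand, was found in 12.4% of all windows and, of the 5 promoters, in that of Dio2, at −30. AAGGTCA, a half-site letter string for nuclear receptors, was in 4.08% of windows and in none of the 5.

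Nearly all counts of Ucp1 and Cidea came from the DHA-fed mice (139 of them, against 2 from the DIO mice). Ucp1 (ENSMUSG00000031710.5, chr8:84016981-84025081, GRCm39) had 0 counts in each of the 3 DIO libraries. In DIO + DHA replicates 1, 2, 4, 5 and 6 it had 25, 15, 8, 18 and 23 counts. These counts correspond to 4.95, 5.02, 2.85, 4.21 and 5.01 CPM (4.41 ± 0.935, SD, n = 5). The groups did not overlap, and among the DHA-fed mice replicate 4 was the lowest. Against a floor of 3 counts over the DIO group (0.231 CPM), the ratio of Ucp1 was 19.5, which leaves out counting error in the DIO + DHA counts.

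Cidea (ENSMUSG00000024526.10), a lipid droplet protein that enlarges droplets in brown fat, had 0, 0 and 2 counts in DIO. The DHA-fed mice held 10, 10, 7, 11 and 12 counts, or 1.98 to 3.34 CPM. The group means were 0.118 ± 0.204 CPM (n = 3) and 2.60 ± 0.488 CPM (n = 5), and the groups did not overlap. The ratio of pooled counts, scaled by library size, was 16.5 with an exact 95% binomial interval of 4.33 to 140, which covers counting error only. Both genes were scarce. In the DHA-fed mice the spread between libraries (coefficient of variation 21.2% for Ucp1 and 18.8% for Cidea) was no wider than counting alone would give (24.3% and 32.5%).

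Dio2 and Cpt1b were close to absent. Dio2 (ENSMUSG00000007682.9, chr12:90691326-90705812), which converts thyroxine to the active thyroid hormone in brown fat, had 0 counts in all 3 DIO mice and 4, 1, 2, 1 and 2 with DHA. Against the floor of 3 counts over the DIO group its ratio was 2.2, which leaves out counting error in the few DIO + DHA counts. Cpt1b (ENSMUSG00000078937.9, chr15:89300608-89310066, minus strand) encodes the muscle and brown fat form of the enzyme that admits long-chain fatty acids to mitochondria. Its total over all 8 libraries was 1 count, in DIO + DHA replicate 5. This count cannot be read as a level: 81.4% of the exon bases of Cpt1b, and 100% of the last 400 at its 3′ end, are also annotated as exons of Gm44502, and the authors' counting left out reads that overlap 2 genes. Gm44502 itself had 0 counts in every library.

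The oxidase isoforms shared with muscle were the most abundant of the 9 genes in the DHA-fed mice, per kilobase as in CPM. Cox6a2 (ENSMUSG00000030785.9, chr7:127804607-127805559, minus strand) had 5, 16 and 18 counts in DIO and 438, 235, 228, 329 and 386 in DIO + DHA. Its level went from 2.81, 2.88 and 3.19 CPM to between 76.9 and 86.7 CPM. The pooled ratio was 27.3 (95% counting interval 19.9 to 38.5). Cox6a2 was the steadiest of the 9 genes among the DHA-fed mice, with a coefficient of variation of 4.90%, where counting alone gives 5.72%. Of its exon bases, 10.3% are shared with Itgad, so some of its reads may not have been counted.

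Cox8b (ENSMUSG00000025488.10, chr7:140478858-140480359, minus strand) followed the same course. It had 8, 9 and 12 counts in DIO and 308, 185, 168, 225 and 332 in DIO + DHA. The group means were 2.74 ± 1.53 CPM (n = 3) and 61.5 ± 7.08 CPM (n = 5), for a pooled ratio of 27.7 (19.2 to 41.5). The DIO spread was set by replicate 1, the shallowest library, at 4.49 CPM against 1.62 and 2.12 CPM in the other two.

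Cox7a1 (ENSMUSG00000074218.4, chr7:29883569-29885503) differed from the other two isoforms in the DIO mice, where it was already well detected. Its counts were 38, 127 and 106 in DIO and 326, 164, 151, 240 and 291 in DIO + DHA. That is 21 ± 2.06 CPM (n = 3) against 58.5 ± 5.05 CPM (n = 5), a pooled ratio of 2.85 (2.49 to 3.26). In absolute terms the difference between diets was 37.5 CPM, less than the 58.8 CPM of Cox8b and the 78.5 CPM of Cox6a2.

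The remaining pair are lipid genes. Fabp3 (ENSMUSG00000028773.9, chr4:130202388-130209256), the fatty acid carrier of heart and muscle, had 1, 3 and 1 counts in DIO and 82, 43, 43, 74 and 95 in DIO + DHA. Its level was 0.426 ± 0.216 CPM (n = 3) against 16.8 ± 2.44 CPM (n = 5), and its ratio of 44.4 had a wide counting interval (18.8 to 138). Of its exon bases 19.6% are shared with Gm10570 and Zcchc17. Elovl3 (ENSMUSG00000038754.6, chr19:46120336-46124133), an elongase of very long-chain fatty acids, had a pooled ratio of 1.96 (1.38 to 2.84), the smallest of the 6 genes with an interval. It had 5, 20 and 18 counts in DIO and 26, 13, 25, 35 and 29 in DIO + DHA, which is 2.81 to 3.60 CPM against 4.35 to 8.90 CPM. The groups did not overlap, but the DHA-fed mice spread more widely (coefficient of variation 29.5%) than for the oxidase isoforms.

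**Figure D1:**
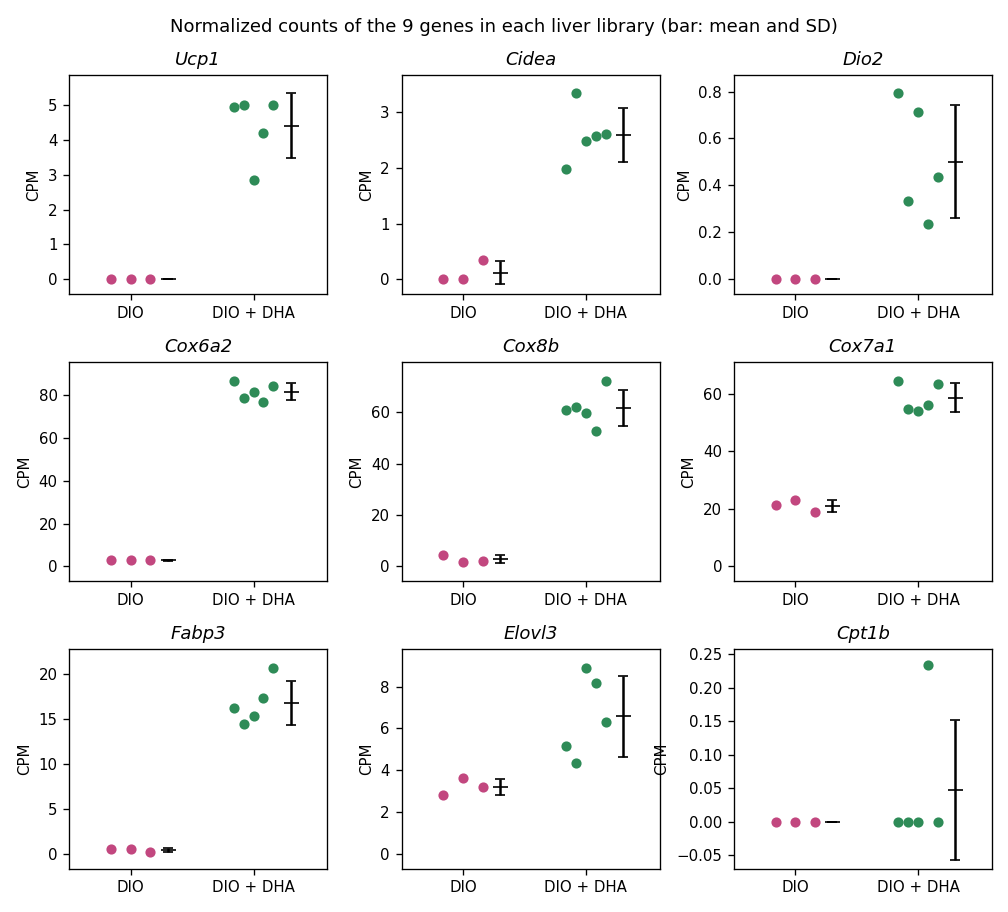
Normalized counts (CPM, linear axes with a scale of their own) of the 9 genes in the 3 DIO (pink) and 5 DIO + DHA (green) libraries, 1 point a library, with the mean and SD beside them. Ucp1 and Dio2 were at 0 in all DIO libraries, Cox7a1 started from 21 CPM, and the groups overlapped only for Cpt1b.

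In all, 8 of the 9 genes had every DIO + DHA library above every DIO library, where 9.55% of the 12412 genes tested did. The 8 include Dio2, which was not among the genes tested. A filter on low counts kept 7 of the 9, of which Ucp1, Cidea and Fabp3 passed only through the DIO + DHA group, and Cpt1b and Dio2 did not pass. By edgeR's quasi-likelihood test all 7 had an adjusted p under 0.05 (6 without DIO replicate 5, where Elovl3 did not), in the direction of DHA, beside 15.2% of all genes tested (7.89% higher and 7.28% lower). Since the genes were named with this contrast known, nothing is read from these counts.

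Per kilobase of exon, the order in the DHA-fed mice was Cox8b (171 ± 19.7 CPM per kb), Cox6a2 (120 ± 5.87), Cox7a1 (109 ± 9.44), Fabp3 (20.4 ± 2.97), Elovl3 (3.33 ± 0.982), Ucp1 (2.69 ± 0.572), Cidea (2.33 ± 0.437) and Dio2 (0.0782 ± 0.0376). The ranges of Cox8b (146 to 201) and Cox6a2 (113 to 127) over the 5 libraries did not overlap. Cox6a2 overlapped with Cox7a1 (100 to 121), and Elovl3, Ucp1 and Cidea overlapped with each other. The libraries were enriched for 3′ ends, so dividing by length can favour short transcripts: by plain CPM Cox6a2 (81.5) exceeded Cox8b (61.5). In DIO the order was different at the top, with Cox7a1 at 39.2 CPM per kb, Cox8b at 7.62 and Cox6a2 at 4.35.

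The muscle and brown fat isoforms remained a minority of each oxidase subunit pair, at a larger share with DHA. Per kilobase, Cox6a2 made up 0.297 ± 0.0048% of the Cox6a2 and Cox6a1 transcripts in DIO (n = 3) and 7.38 ± 0.431% in DIO + DHA (n = 5). The DIO share rests on 5, 16 and 18 counts of Cox6a2. Counting alone gives these a coefficient of variation of 31.8%, so the small SD overstates the precision. Cox8b made up 0.592 ± 0.348% and 10.4 ± 0.999% of the Cox8b and Cox8a pair. Cox7a1 made up 8.61 ± 1.42% and 17.6 ± 1.45% of the Cox7a1 and Cox7a2 pair. The ranges did not overlap between groups for any of the 3 pairs. These shares hold the same selected counts and carry no test.

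**Figure D2:**
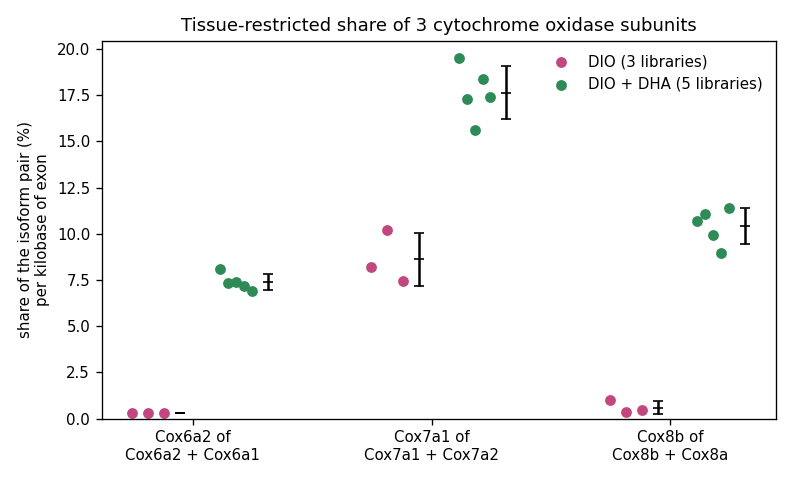
Share of the muscle and brown fat isoform in 3 cytochrome oxidase subunit pairs, in percent of the pair's CPM per kilobase, for each DIO (pink) and DIO + DHA (green) library, with mean and SD. The lowest DIO + DHA share was 6.93% for Cox6a2, 15.6% for Cox7a1 and 8.94% for Cox8b, each above the highest DIO share.

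The common subunits, which are not among the brown fat and shared genes, had log2 fold changes of 0.05 to 0.29. Their list was nevertheless chosen with earlier results of these data known. Its share of genes that rose and its tests, with that of the summed level below, are therefore not independent of those results and serve as a description. Of 15 listed, 13 were tested, 5 rose with DHA (38.5%, beside 7.89% of all genes) and 8 did not pass. The 5 were Cox5b (log2 fold change 0.29, SE 0.07, adjusted p = 0.001 by edgeR), Cox7a2 (0.29), Cox6b1 (0.25), Cox7c (0.24) and Ndufa4 (0.21). Of the partners in the pairs above, Cox6a1 had a log2 fold change of 0.05 (edgeR adjusted p = 0.73) and Cox8a of 0.18 (edgeR adjusted p = 0.053), so only Cox7a2 passed. The median log2 fold change of the list was 0.18, against 0.00 for all genes tested. These comparisons were not matched for level: the subunits are abundant, while the genes tested span all levels. Of 10 hepatocyte genes, also abundant, 3 rose and 3 fell.

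Summed over the 12 nuclear-encoded common subunits, the level was 6920 ± 108 CPM in DIO (6797 to 7001, n = 3) and 7752 ± 412 CPM in DIO + DHA (7437 to 8396, n = 5). The difference of 832.4 CPM, 12.0% of the DIO level, was larger than the spread between mice (exact two-sided permutation test, p = 0.0179, the smallest that 56 splits allow). Without any 1 of the 3 DIO replicates that p was 0.0952 (difference 796.9 to 912.3 CPM), and without DIO + DHA replicate 1 it was 0.0571 (878.8 CPM). Without DIO replicate 5, 3 subunits rose in place of 5. mt-Co1, encoded in mitochondrial DNA, was at 874 ± 186 and 1060 ± 176 CPM (edgeR adjusted p = 0.44), while mt-Co3 was listed at 0 throughout and mt-Co2 had 1 count in all. Reads of the common subunits that also map to processed pseudogenes were not counted, so their levels may be too low. Of the last 400 exon bases, 67.2% in Cox5a and 61.2% in Cox6c are shared with another gene, where reads were left out as well.

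Other isoforms restricted to further tissues were low. Cox7b2 and Cox8c, testis isoforms, were at 0 in all 8 libraries, and Cox4i2, a lung isoform, had 2 counts in DIO and 1 in DIO + DHA. Cox6b2 was at 1.94 ± 0.434 and 2.74 ± 0.405 CPM (edgeR adjusted p = 0.36).

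For the remaining genes, other members of the same families were read, those of liver and those of further tissues. Of 17 counterparts listed, 12 were tested, 6 rose with DHA and 1 fell (median log2 fold change 0.33). The liver carrier Fabp1 rose from 15033 ± 726 to 22307 ± 1653 CPM (log2 fold change 0.57, edgeR adjusted p = 2.3e-11), and Fabp3 made up 0.00288 ± 0.00153% of the Fabp3 and Fabp1 counts in DIO and 0.0754 ± 0.0112% in DIO + DHA. Among elongases, Elovl2 (log2 fold change 1.06) and Elovl5 (0.99), which act on polyunsaturated fatty acids, and Elovl6 (0.56), which acts on saturated ones, rose. Fabp2 (0.46) and Fabp5 (0.89) rose too, and Fabp7 fell by 0.80 on the log2 scale (edgeR adjusted p = 0.0082). Cpt1a, the liver form of the enzyme above, was at 460 ± 47.9 and 481 ± 23.2 CPM (edgeR adjusted p = 0.62). Dio1, the liver deiodinase, was at 245 ± 6.19 and 239 ± 24.7 CPM (edgeR adjusted p = 0.88). Ucp2, the relative of Ucp1 found in many cells, was at 3.58 ± 1.37 and 2.32 ± 0.525 CPM (edgeR adjusted p = 0.45), but 76.2% of its last 400 exon bases are shared with Dnajb13, so this is not a full count. Cideb, Cpt1c, Dio3, Elovl4 and Elovl7 were below the filter. The counts of Cideb cannot be read as a level. Of its exon bases 83.5%, and 100% of the last 400, are shared with Gm56758 or Nop9, where reads were left out.

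Further genes of the brown fat programme divided into those detected in DIO livers and those near 0 in all mice. Of 22 listed, 12 were tested, 5 rose (41.7%, beside 7.89% of all genes) and 7 did not pass (median log2 fold change 0.16). The 5 were Ppargc1a, a coactivator of mitochondrial genes (7.95 ± 1.24 to 34.6 ± 4.75 CPM, log2 fold change 1.99, SE 0.16, edgeR adjusted p = 7.1e-16), Pdk4, a brake on glucose oxidation (4.58 ± 0.61 to 23.5 ± 5.21 CPM, log2 fold change 2.17), Pank1 (0.37), Gk (0.32) and Plin5 (0.23). All 5 were at 4.58 CPM or more in DIO livers, and which cells their rise came from was not tested. Adrb3, the adrenergic receptor of adipocytes, was at 1.70 ± 0.586 and 1.71 ± 0.738 CPM (edgeR adjusted p = 0.92), Ppargc1b at 3.99 ± 0.304 and 4.08 ± 0.742 CPM (edgeR adjusted p = 0.96).

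The 10 genes of that list below the filter include the transcription factors that specify brown fat. Ebf2, Zic1, Lhx8 and Prdm16 together had 2 counts in DIO and 7 in DIO + DHA, never more than 3 in one library for one gene. Lhx8 and Otop1 were at 0 everywhere. Slc36a2 and S100b, brown adipocyte markers, had 0 counts in DIO and 5 and 6 in DIO + DHA. Ucp3, the uncoupling protein of muscle and brown fat, had 0 counts in DIO and 4, 1, 5, 2 and 4 in DIO + DHA. The summed level of the 22 genes was 508 to 542 CPM in DIO and 671 to 739 CPM in DIO + DHA (difference 160.8 CPM, exact two-sided permutation test, p = 0.0179, the smallest possible), with Pank1 and Plin5 the most abundant. This list, too, was chosen with earlier results of these data known.

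Markers of other cell types were read in the same libraries, since bulk RNA cannot tell a change in the number of cells of a type from a change in RNA per cell. Of 28 skeletal muscle genes 25 were tested. Of these, 15 passed the filter on low counts only through the DIO + DHA group, which fixed their direction. The 10 that also passed in DIO all rose (edgeR), where 7.89% of all genes tested did. The summed level of the 28 was 39.3 to 46.0 CPM in DIO and 1448 to 1566 CPM in DIO + DHA, led by Acta1, the skeletal actin (11.8 ± 0.273 to 544 ± 20.7 CPM), and Tnnt3, a fast troponin (4.39 ± 1.37 to 196 ± 17.6 CPM). Myh2, a fast oxidative myosin, was at 0.179 ± 0.18 and 28.7 ± 6.95 CPM, with 59.2% of its last 400 exon bases shared with another gene. Of 12 genes of slow or heart muscle, 11 were tested, 9 of them passing only through DIO + DHA, and the 2 that also passed in DIO rose. The summed level of the 12 was 49.9 to 60.9 CPM in DIO and 193 to 222 CPM in DIO + DHA. Csrp3, at 47.7 ± 4.91 and 69.5 ± 5.54 CPM, made up most of that sum in DIO, where its mean was 54.9 CPM. Ckmt2 was at 0.908 ± 0.32 and 37.9 ± 5.14 CPM and Myl3 at 0.849 ± 0.293 and 34.7 ± 3.69 CPM. Of 8 genes of heart muscle, the 2 tested, Myl4 and Tnnt2, did not pass (edgeR adjusted p = 0.27 and 0.88), and Nppa, Nppb, Myh6 and Ryr2 were at 0 in all libraries, although 83.2% of the last 400 exon bases of Nppa are shared with another gene. Ucp1, Cidea and the shared genes thus differed between diets in the same libraries in which these skeletal muscle genes differed, and the part of muscle RNA in their levels was not tested.

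**Figure D3:**
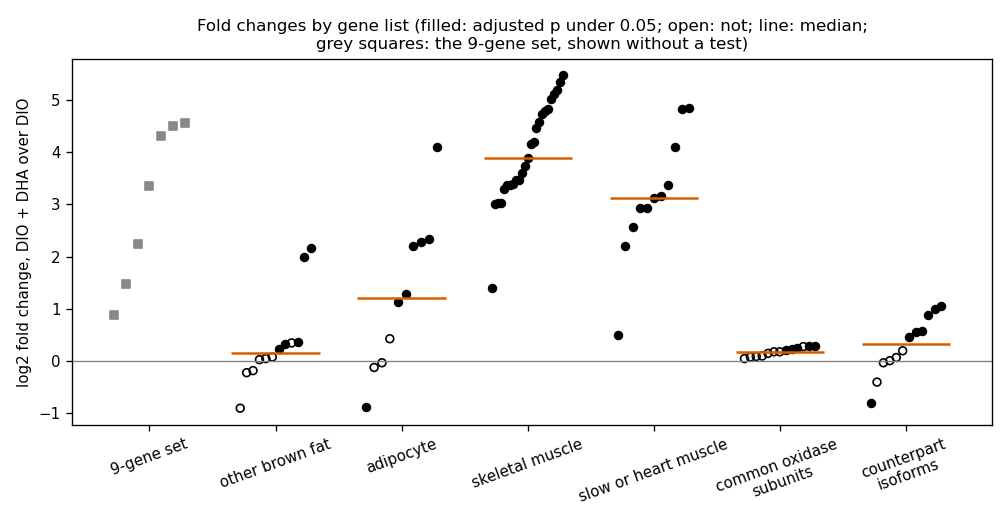
Log2 fold changes (DIO + DHA over DIO) of the tested genes on each list, 1 point a gene, filled where the adjusted p of edgeR's test was under 0.05, with the list median as a line. The 7 tested brown fat and shared genes are grey squares with no test. The medians were 3.89 for skeletal muscle and 3.13 for slow or heart muscle, where 15 of 25 and 9 of 11 genes passed the filter only through DIO + DHA, and 0.16 for other brown fat genes and 0.18 for common oxidase subunits.

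Adipocyte genes moved unevenly. Of 15 listed, 10 were tested. Of these, 2 (Adipoq and Retn) passed the filter on low counts only through the DIO + DHA group, which fixed their direction. Of the 8 that also passed in DIO, 4 rose, where 7.89% of all genes tested did, and 1 fell, where 7.28% did. The median log2 fold change of the 10 was 1.21. Cfd, the adipokine adipsin, rose from 1.39 ± 0.677 to 33.3 ± 5.28 CPM (log2 fold change 4.11, SE 0.24, edgeR adjusted p = 1.5e-22), and Cidec, the droplet protein related to Cidea, from 9.50 ± 1.84 to 48.8 ± 2.49 CPM (2.33). Lpl, Fabp4, Adipoq and Retn also rose, whereas Plin4 fell by 0.88 on the log2 scale. Car3, the most abundant gene of the list, was at 1043 ± 49.4 and 1022 ± 41.1 CPM (edgeR adjusted p = 0.85) and makes up most of the summed level of 1085 to 1189 CPM in DIO and 1239 to 1345 CPM in DIO + DHA. Plin1, the droplet coat of mature adipocytes, had 0 counts in DIO and 2, 2, 3, 1 and 5 in DIO + DHA, and Lep had 0 and 2. The part of adipocyte RNA in the levels of Ucp1 and Cidea was not tested.

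Genes of stratified squamous epithelium differed in the same libraries. Of 12 listed, 5 were tested, all of them passing the filter only through DIO + DHA, so that their direction was fixed. The summed level of the 12 was 0 to 0.36 CPM in DIO and 50.8 to 54.9 CPM in DIO + DHA. Krt4 (0.06 ± 0.104 to 25.2 ± 3.39 CPM) and Krt13 (0 to 15.7 ± 1.92 CPM) led that list, while Krt5, Krt14, Trp63 and 4 more were below the filter. Of 7 smooth muscle genes, 5 were tested and 2 rose (Acta2, 2.85 ± 1.1 to 7.20 ± 1.36 CPM, and Actg2, which passed the filter only through DIO + DHA), with Smtn at 2.59 ± 0.836 and 3.26 ± 0.315 CPM. Of 10 hepatocyte genes, 3 rose and 3 fell: Alb had a log2 fold change of 0.12, Apoa2 of 0.17, Apoa1 of 0.52 and Fgb of -0.51. Over all genes tested, 7.89% rose and 7.28% fell.

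Counted against the skeletal muscle list in the same library, the shared genes separated. In the DIO + DHA libraries, each 100 counts of the 28 muscle genes came with 5.14 to 5.81 counts of Cox6a2, 3.51 to 5 of Cox8b, 3.60 to 4.38 of Cox7a1 and 0.943 to 1.43 of Fabp3. In DIO, where the muscle list had only 82, 253 and 222 counts, the same ratios were 6.10 to 8.11 for Cox6a2, 3.56 to 9.76 for Cox8b and 0.45 to 1.22 for Fabp3. The ranges of the groups thus overlapped for Cox8b and Fabp3, and for Cox6a2 the DIO range lay just above. For Cox7a1 the DIO ratio was 46.3 to 50.2, and for Elovl3 it was 6.10 to 8.11 against 0.285 to 0.604 with DHA, so the DIO ranges of these 2 genes lay above their DIO + DHA ranges. Ucp1 went from 0 to between 0.193 and 0.346 per 100 muscle counts, and the 2 Cidea counts of DIO replicate 5 gave 0.901 there against 0.126 to 0.219 with DHA. Per 100 counts of Cox8b, the DIO + DHA libraries held 4.76 to 8.12 counts of Ucp1.

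**Figure D4:**
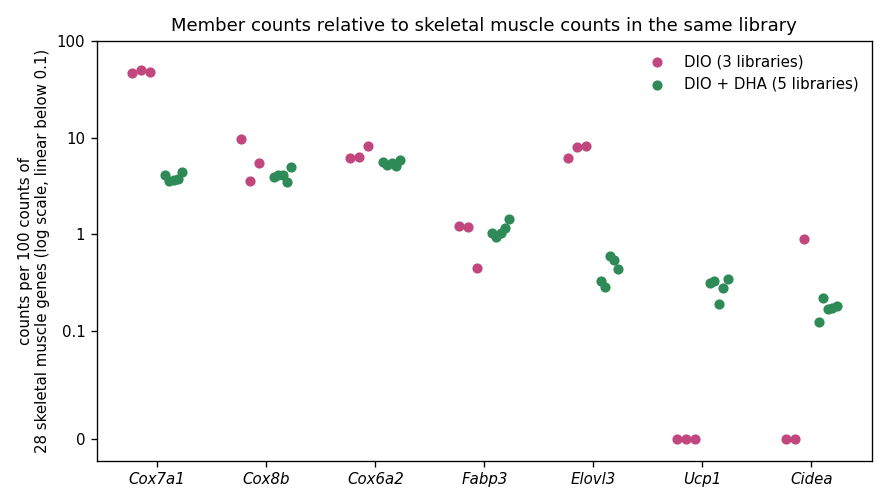
Counts of 7 genes per 100 counts of the 28 skeletal muscle genes in the same library (log axis, linear below 0.1), for 3 DIO (pink) and 5 DIO + DHA (green) libraries. The groups overlap for Cox8b, Fabp3 and Cidea, Cox7a1 (46.3 to 50.2) and Elovl3 (6.10 to 8.11) lie higher in DIO, and Ucp1 is at 0 in DIO.

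The genes whose profiles over the 8 libraries came nearest to the oxidase isoforms are named by the root mean square difference of centred log2(CPM + 1) values, as a description. For Cox6a2, whose distance from a flat profile was 2.122, they were Krtdap (0.132), an epidermal gene, the muscle genes Myl3 (0.157), Tnni2 (0.177) and Ckmt2 (0.184), and Krt4 (0.194). For Cox8b (flat 2.022) they were Mylpf (0.229), Myl3 (0.232), Cyp2b10 (0.273), Sln (0.277) and Ckm (0.285). Of these, 4 are muscle genes, Sln being sarcolipin, and Cyp2b10 is a drug-metabolizing liver enzyme. For Cox7a1 (flat 0.705) they included Tubb2a (0.079), Acot1 (0.102), Igfbp2 (0.121) and Tbx1 (0.133), genes with different levels, from 0.486 CPM for Tbx1 to 289 CPM for Igfbp2 in DIO. No gene was among the 5 nearest to both Cox7a1 and one of the other two isoforms, while Myl3 was near both Cox6a2 and Cox8b.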

How the data were processed

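Liver RNA was sequenced with a bulk adaptation of SCRB-seq, a protocol that reads barcoded 3′ ends. The deposited values are raw read counts per gene. The authors mapped reads to GRCm39 with STAR 2.7.9a after FastQC 0.11.8 and trimming, and counted them with featureCounts 1.6.0 over GENCODE exons, unstranded, uniquely mapped reads only. Reads overlapping 2 genes were left out. Whether reads were collapsed by molecular identifier is not given in the sources used here. Of 56884 gene IDs, 56323 were named from GENCODE.

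Groups and replicate numbers came from the sample titles. Replicates were separate mice. The genes and lists were chosen with earlier results of these data known. Genes were dropped where over 50% of the libraries of each group had a count under 5, which left 12412. edgeR 4.0.16 (R 4.3.3) gave TMM factors and its robust quasi-likelihood test of DIO + DHA against DIO, with Benjamini-Hochberg adjustment over all tested genes and a threshold of 0.05. Log2 fold changes use a prior count of 2. CPM was scaled to the effective library size. Ratios of pooled counts have exact 95% binomial intervals, and a group at 0 was given a floor of 3 counts over the group. Summed levels were compared by exact permutation over 56 splits. Named were all 9 genes, the counterparts and common subunits a result turns on, the 2 most abundant and 2 most changed tested genes of each other list, and the 5 nearest profiles of each isoform, of which 1 is not reported here. Other genes (the untested brown fat, adipocyte and epithelial genes, Adrb3, Ppargc1b, Cox4i2, Cox7b2 and Cox8c) were named to account for their lists, after their values were seen.

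Alternatives were DESeq2 1.42.0 size factors and Wald test, limma-voom 3.58.1, other scalings, filters and a prior count of 0.5, a replicate block, and leaving out each library. The edgeR fit was tested on simulated data for 5 against 3 libraries (12030 genes): it recovered 72 of 98 genes changed 2-fold and 94 of 98 changed 4-fold, with 10 false calls. Every simulated gene had the same coefficient of variation beyond counting (0.0801), so these figures do not cover genes that vary more between mice.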

Additional observations from a re-analysis of the deposited data

Results flagged for a closer look

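In 39 sets of 5 DIO + DHA values (gene levels and summed list levels), 5 held a library whose gap to the nearest other exceeded Dixon's 95% critical value of 0.71 of the range. Chance flags about 1 in 20 such sets. Cpt1b had its single count in replicate 5 (0.234 CPM, 0 in the other libraries). The summed level of the adipocyte genes was 1345 CPM in replicate 4 against 1239 to 1265 CPM in the others. Replicate 6 stood apart for Cox6a1 (1167 CPM against 1019 to 1054), Fabp2 (347 CPM against 291 to 304) and Fabp7 (6.32 CPM against 3.34 to 4.21).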

How the results depend on the processing

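Over 17 alternatives to the reported fit, none of 269 recomputed values reversed. Of 112 recomputed counts of called genes per list, 79 were unchanged, and the others moved by 1 gene or, for the common subunits, by up to 2. The count of common oxidase subunits that rose went from 5 to 3 with a replicate block and ranged from 3 to 6 when 1 library was left out, with 3 without DIO replicate 5. The difference in the summed level of the common subunits ranged from 651.7 to 912.3 CPM over the leave-one-out comparisons, with p from 0.0286 to 0.0952. Its p was 0.0952 without any 1 DIO replicate, where 21 splits are left and the smallest p is 0.0476, and 0.0571 without DIO + DHA replicate 1. The same-numbered mice did not deviate together (correlations of −0.044 to −0.01 over 6213 genes), so the numbers do not pair the libraries; the block moved no other count by over 1.5 times. The fitted log2 fold changes of the scarce genes depended on the prior count and tool: Ucp1 was 3.35 as reported, 5.24 with a prior count of 0.5, 5.13 by limma-voom and 6.53 by DESeq2. Cidea likewise ranged from 2.24 to 4.02 and Fabp3 from 4.32 to 5.45, and no statement above rests on these fits. Depth limits the genes at 0 in DIO, where 3 counts over the group equal 0.231 CPM.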
